A study of Mus musculus with 12 samples.

Results

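The regions described here were called accessible in every library of neurons treated with fibrils alone. They were called in no library of vehicle-treated neurons and in no library of fibril-treated neurons that also received an inhibitor of the kinase LRRK2. The members were chosen by the peak calls themselves. Peaks of all 12 libraries were merged where they overlapped by 1 bp or more, and a region was a member when it held a peak in 3 of 3 PFF libraries, 0 of 3 PBS libraries and 0 of 3 PFF+MLi-2 libraries. Of 263785 merged regions, 1003 were members. Their pattern across these 9 libraries is therefore a description and carries no test.

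The cultures were primary cortical neurons of wild-type C57BL/6 mice at embryonic day 18, 3 libraries per group. The PBS group received the vehicle of the fibrils for 7 days. The PFF group received preformed fibrils of human wild-type α-synuclein for 7 days. The PFF+MLi-2 group received the same fibrils, with the LRRK2 inhibitor MLi-2 present for the last 5 days, and the PFF+Rab5 ASO group received the fibrils with antisense oligonucleotides (ASO) against the early endosomal GTPases Rab5a and Rab5b for the last 3 days. Per the methods, an equal volume of DMSO was given to the controls of MLi-2. No group with MLi-2 but without fibrils was analysed here, so an effect of MLi-2 on its own cannot be told apart from one that needs fibrils. A group with a control oligonucleotide, or with the ASO but without fibrils, was not analysed either. An effect of Rab5 loss therefore cannot be told apart from one of the oligonucleotides themselves. All libraries carry batch 1 in the labels. Per the methods, a replicate is a pregnancy whose cultures were divided at random among the groups, but the labels do not tie a replicate number to a pregnancy.

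Assay for transposase-accessible chromatin with sequencing (ATAC-seq) marks DNA that is not wrapped in nucleosomes, mainly promoters and enhancers. Fibrils of α-synuclein are taken up through endosomes, and LRRK2 phosphorylates Rab GTPases on endosomal and lysosomal membranes. AP-1, formed by Fos and Jun proteins, binds the motif TGANTCA (N is any base) and is known to open enhancers after stimulation of neurons. TFEB and TFE3, which switch on lysosomal genes, recognise an element built around the E-box CACGTG, and CAGCTG is an E-box of other basic helix-loop-helix (bHLH) factors.

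The first set of sequences is shown because these are the members with the AP-1 motif among the 20 members that ranked highest in the PFF peak lists. Each is the plus strand of GRCm38, cut to the part of the region within 100 bp of the summit, and capitals mark TGANTCA and CACGTG on either strand.
Il1r1 upstream (chr1:40174276-40174421): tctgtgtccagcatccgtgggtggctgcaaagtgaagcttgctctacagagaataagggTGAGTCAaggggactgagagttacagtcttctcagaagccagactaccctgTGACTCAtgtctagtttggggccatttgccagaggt
Inhbb distal (chr1:119292357-119292540): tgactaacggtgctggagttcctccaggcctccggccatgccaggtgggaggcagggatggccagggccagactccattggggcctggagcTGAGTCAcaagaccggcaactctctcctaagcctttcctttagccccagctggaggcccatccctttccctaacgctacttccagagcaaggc
Pappa2 intron (chr1:158917137-158917327): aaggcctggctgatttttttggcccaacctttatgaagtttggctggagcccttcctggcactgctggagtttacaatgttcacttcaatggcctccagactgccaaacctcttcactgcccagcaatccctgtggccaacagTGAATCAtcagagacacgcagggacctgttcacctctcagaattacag
Olig1 distal (chr16:91280706-91280868): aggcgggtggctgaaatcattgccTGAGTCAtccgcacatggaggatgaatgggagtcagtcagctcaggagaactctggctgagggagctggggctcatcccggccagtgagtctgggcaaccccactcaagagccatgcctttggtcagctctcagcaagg
C78283 promoter (chr5:73946172-73946338): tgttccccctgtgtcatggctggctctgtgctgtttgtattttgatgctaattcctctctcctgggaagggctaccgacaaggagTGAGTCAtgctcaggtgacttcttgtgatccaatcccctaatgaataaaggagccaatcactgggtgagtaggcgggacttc
Wwox intron (chr8:115081629-115081829): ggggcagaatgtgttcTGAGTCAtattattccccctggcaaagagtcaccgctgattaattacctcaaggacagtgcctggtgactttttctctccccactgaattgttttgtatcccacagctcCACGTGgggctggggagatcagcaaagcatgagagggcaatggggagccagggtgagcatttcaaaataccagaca

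In 5 of these 6 regions there was no peak in any PFF+Rab5 ASO library, the exception being the Inhbb region. Of all members 53.1% had no such peak, and of all regions 28.7%. The Il1r1 region, which lies 50704 bp upstream of the gene for the interleukin-1 receptor, held the AP-1 motif at 2 positions. The Wwox region held AP-1 and CACGTG together. The second set shows some of the members in which a start site within 1 kb and CACGTG inside the region occurred together.
Ano2 promoter (chr6:125711397-125711506): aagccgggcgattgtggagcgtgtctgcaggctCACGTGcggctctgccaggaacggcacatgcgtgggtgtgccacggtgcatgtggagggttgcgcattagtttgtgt
Rccd1 promoter (chr7:80318760-80318946): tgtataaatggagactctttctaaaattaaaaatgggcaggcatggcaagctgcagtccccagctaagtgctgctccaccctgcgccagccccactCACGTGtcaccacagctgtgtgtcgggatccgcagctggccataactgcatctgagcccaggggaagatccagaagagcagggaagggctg
Gm20735 promoter (chr8:122451143-122451342): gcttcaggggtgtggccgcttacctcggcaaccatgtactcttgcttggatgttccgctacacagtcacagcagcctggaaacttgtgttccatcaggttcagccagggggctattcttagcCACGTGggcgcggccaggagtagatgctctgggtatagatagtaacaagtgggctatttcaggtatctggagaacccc
Ak1 promoter (chr2:32629687-32629832): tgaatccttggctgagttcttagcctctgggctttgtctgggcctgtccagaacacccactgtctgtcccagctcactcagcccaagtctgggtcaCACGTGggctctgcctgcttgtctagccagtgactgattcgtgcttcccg

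The Ano2 region overlaps the start of a calcium-activated chloride channel gene, with its summit 15 bp upstream of the start site. Rccd1 and Ak1 (adenylate kinase) held their summits 343 and 220 bp downstream of a start site, and the noncoding gene Gm20735 44 bp downstream. The promoters of Art5 and Wdcp also held CACGTG within 100 bp of the summit, but outside the called region, and are not printed.

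Members were low regions of ordinary width. Their median width was 148 bp (range 75 to 439), beside 149 bp for all regions, 139 bp for regions of 3 to 6 libraries and 346 bp for the regions called in all 12 libraries. The pileup, the number of overlapping fragments at the summit, had a median of 13 in each PFF library, with ranges of 8 to 32, 8 to 37 and 8 to 32 in replicates 1, 2 and 3. The lowest pileup called in any library was 8 or 9 and the median peak of a PFF library had 17, so the median member lay between them. In 227 members (22.6%) the pileup was 8 to 12 in all 3 PFF libraries. In 796 members (79.4%) the pileup was at or below the library median in all 3 PFF libraries, and in 60 (5.98%) it was above it in all 3. The fold enrichment over local background had medians of 4.40, 4.62 and 4.57, which placed the median member between the 27.6 and 32.2 percentiles of the PFF lists.

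Regions just outside the rule with a peak in all 3 PFF libraries were of similar rank. With a peak in 3 of 3 PFF and 0 of 3 PBS libraries, 857 regions were called in 1 PFF+MLi-2 library, 411 in 2 and 114 in all 3, and the 114 are called kept regions below. Another 1216 regions missed the rule through 1 PBS library and 4368 through 1 PFF library. The median over regions of the mean PFF percentile was 30.4 for members, 31.8 and 32.5 for the regions with 1 and 2 PFF+MLi-2 peaks, 35.2 for kept regions and 31.7 for the regions with 1 PBS peak.

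As background, 1.10% of the 216981 regions with a PFF or PBS peak were called in 3 of 3 PFF and 0 of 3 PBS libraries, 1.64% of the 205235 with a PFF or PFF+MLi-2 peak were called in 3 of 3 PFF and 0 of 3 PFF+MLi-2 libraries, and members made up 0.436% of the 230158 regions that were called in at least 1 library of these groups. The same rule with PBS in the place of PFF gave 181 regions, and with PFF+MLi-2 in that place 92. Nothing is read from these counts, since the rule fixed them.

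The rule was also applied with 1 library of each group held out, and the regions were read in the libraries that had no part in the choice. For each replicate number, regions were taken that had a peak in the other 2 PFF libraries and in 0 of the other 4 PBS and PFF+MLi-2 libraries, which gave 4545, 2934 and 4462 regions. A peak was called in the held-out PFF library for 50.7%, 53.4% and 41.7% of them with replicates 1, 2 and 3 held out. In the held-out PBS libraries the shares were 38.0%, 15.5% and 20.5%. In the held-out PFF+MLi-2 libraries they were 19.9%, 18.8% and 21.6%. All 3 PFF values lay above all values of the other groups, and PBS replicate 1 lay nearest to them.

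The held-out PFF share was 48.6% ± 6.14 (SD, n = 3), against 24.7% ± 11.8 in PBS and 20.1% ± 1.40 in PFF+MLi-2. The difference was 23.9 percentage points from PBS and 28.5 from PFF+MLi-2, each with p = 0.1 in a two-sided exact permutation test, which is the smallest value that 3 libraries against 3 allow. Each library also helped to choose the regions of the other splits, so the 3 region sets share libraries and are not independent. The p-values from these splits are therefore nominal, and no conclusion is drawn from them. Paired by replicate number, the exact sign-flip test gave p = 0.25, its smallest value. The same construction with PBS as the group with peaks gave held-out shares of 33.9% ± 19.9 for PBS, 27.6% ± 10.5 for PFF and 23.9% ± 6.00 for PFF+MLi-2. With PFF+MLi-2 as that group, the shares were 30.1% ± 4.14 in PFF+MLi-2, 30.1% ± 19.1 in PBS and 25.8% ± 9.71 in PFF. In neither did all 3 values of the choosing group lie above the others, and the two-sided exact permutation p was 0.7 and 0.6 with PBS and 1 and 0.5 with PFF+MLi-2. PBS replicate 1 was the highest library in both, at 56.4% and 51.1%.

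**Figure D1:**
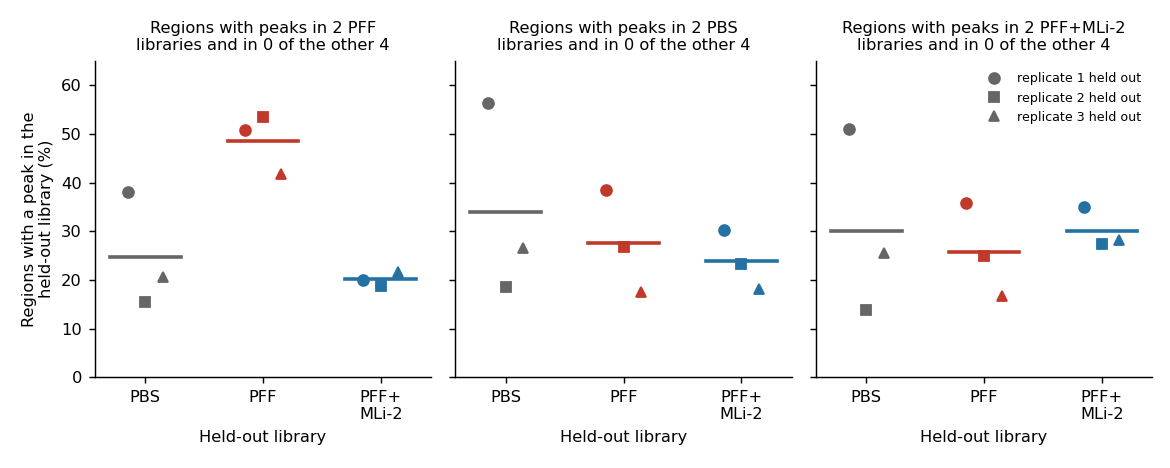
Share of regions (%, vertical axis) with a peak in each held-out library (horizontal axis), for regions chosen in the other libraries with PFF, PBS or PFF+MLi-2 as the group with peaks. Points are the 3 held-out replicates and bars their means, and only in the PFF panel do the 3 points of the choosing group (41.7% to 53.4%) lie above all others.

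List length and local background also differed between the libraries. PBS replicate 1 had the second longest list of the series (180989 peaks), against 137417 and 152173 in the other PBS libraries, 151900 to 172377 in PFF and 145497 to 147991 in PFF+MLi-2. The commonest local background of the peaks was 1.73 or less in PFF, 1.72 to 1.78 in PBS, 1.77 to 1.90 in PFF+MLi-2 and 1.82 to 2.11 in PFF+Rab5 ASO libraries. With the same number of top peaks taken from every library, the held-out differences were 23.8 points from PBS and 24.0 from PFF+MLi-2, and 691 regions met the rule. Without PBS replicate 1, 1698 regions met it. The part of list length and local background in the members was not tested.

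The PFF+Rab5 ASO libraries had no part in the rule, and most members were not called there in any given library. A peak was present in 324, 273 and 230 members, or 32.3%, 27.2% and 22.9%, in replicates 1, 2 and 3. The kept regions were called in 65.8%, 53.5% and 43.9%, the 48882 other regions called in 3 to 6 of the 12 libraries in 52.2%, 43.2% and 37.2%. The set of 3 to 6 libraries was chosen in part by its PFF+Rab5 ASO peaks and kept regions by 3 more peaks than members, so the order of these shares is partly set by how the sets were built. The members' mean share of 27.5% ± 4.69 was 26.9 percentage points below that of the kept regions (54.4% ± 11.0, SD, n = 3). A two-sided exact sign-flip permutation test over libraries gave p = 0.25, the smallest value 3 libraries allow. Since kept regions were chosen with more peaks, no conclusion is drawn from this test.

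By number of PFF+Rab5 ASO libraries, 533 members (53.1%) had a peak in none, 232 in 1, 119 in 2 and 119 in all 3. No peak in any of the 3 was found in 28.7% of all regions, in 2621 of 4367 regions called in 2 PFF libraries with no PBS and no PFF+MLi-2 peak, and in 77.5% of such regions called in 1 PFF library. A peak in at least 2 of the 3 was found in 23.7% of members (Wilson 95% interval 21.2 to 26.5), 57.9% of kept regions (48.7 to 66.6) and, as background, 51.0% of all regions. The interval covers counting error only. Regions with 1 or 2 PFF+MLi-2 peaks fell between members and kept regions, at 38.6% and 46.2%. The comparison is not even, since kept regions have at least 6 peaks by the rule and members at least 3. The regions with a peak in 2 PFF, 0 PBS and 0 PFF+MLi-2 libraries stood at 18.0%, below the members. The members with a peak in all 3 PFF+Rab5 ASO libraries had a median mean percentile of 34.0 in PFF and 40.2 in PFF+Rab5 ASO, and those with none had 30.2 in PFF.

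**Figure D2:**
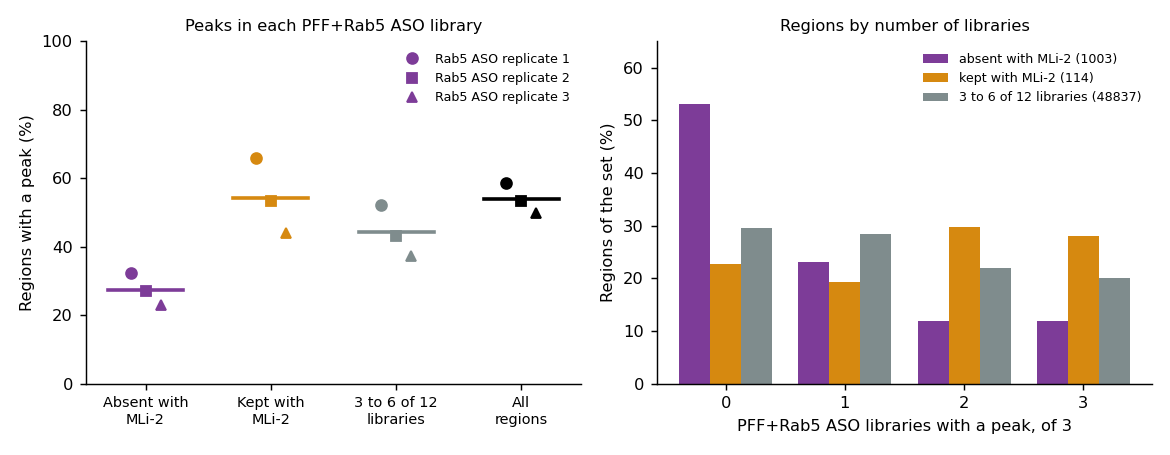
Left, share of regions (%) with a peak in each of the 3 PFF+Rab5 ASO libraries (points, with the mean as a bar) for members (absent with MLi-2), kept regions, other regions of 3 to 6 libraries and all regions. Right, share of each set (%) by the number of PFF+Rab5 ASO libraries with a peak, where 53.1% of members fall at 0.

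Members lay mostly away from promoters. The summit was within 1 kb of a transcription start site in 11.4% (Wilson 95% interval 9.55 to 13.5), or 7.58% for start sites of protein-coding genes. It was in an intron in 50.6%, in an exon in 4.79%, between genes but within 50 kb of one in 26.8%, and farther away in 6.38%. Regions of 3 to 6 libraries had 12.3% at start sites and 46.1% in introns, regions of all 12 libraries 27.9% and 36.5%, and all regions 16.5% and 43.5%. The median distance to the nearest protein-coding start site was 19742 bp for members, 29082 bp for regions of 3 to 6 libraries and 14502 bp for regions of all 12. A region with a PBS or PFF+MLi-2 peak lay within 100 bp of 13.3% of members, 18.0% of regions of 3 to 6 libraries and 19.2% of all regions. Members occurred on chromosomes 1 to 19 and X, at 3.07 per 1000 regions on chromosome 13 to 4.95 on chromosome 8.

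**Figure D3:**
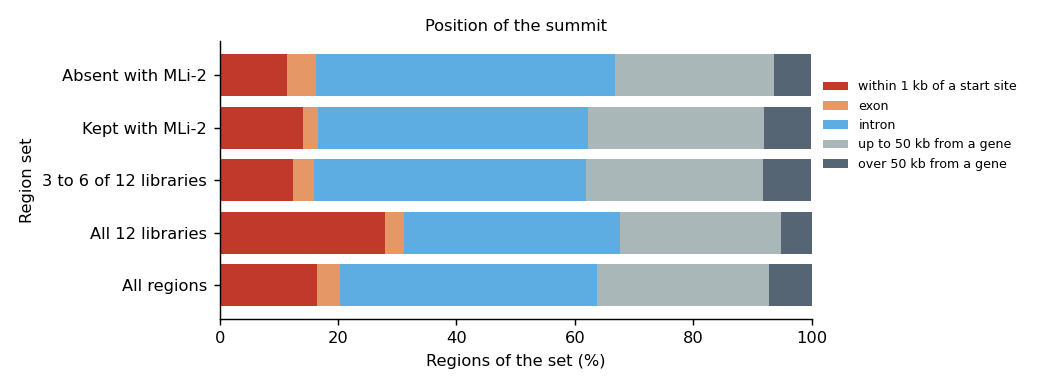
Position of the summit for 5 sets of regions, as the share of each set (%). Members (absent with MLi-2) have 11.4% within 1 kb of a start site and 50.6% in introns, against 27.9% and 36.5% for regions called in all 12 libraries.

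The median GC content of the sequence within 100 bp of the summit was 50.2% in members, 49.3% in kept regions, 50.2% and 50.7% in regions with 1 and 2 PFF+MLi-2 peaks, 47.3% in regions of 3 to 6 libraries and 51.7% in those of all 12 libraries. The median share of soft-masked repeat sequence was 4.48% in members, 3.48% in kept regions, 5.97% and 9.95% in regions with 1 and 2 PFF+MLi-2 peaks and 9.45% in regions of 3 to 6 libraries.

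In all, 16 motifs were searched on both strands in these windows. TGANTCA was found in 160 members, 16.0% (Wilson 95% interval 13.8 to 18.3), against 5850 of the 48837 regions of 3 to 6 libraries that lie on chromosomes with sequence (11.7% to 12.3%) and 10.8% of all regions. Its classical form TGACTCA accounted for most of this, with 11.9% of members and 8.38% of regions of 3 to 6 libraries. Across regions with no PBS and no PFF+MLi-2 peak, TGANTCA was found in 11.9% of those called in 1 PFF library, 13.7% in 2 and 16.0% in 3. Its share was 14.2%, 16.1% and 18.4% of regions with a peak in 1, 2 and 3 PFF+MLi-2 libraries. Regions with 3 PFF peaks, 1 PBS peak and no PFF+MLi-2 peak had 12.2%. It was found in 7.73% (4.66 to 12.6) of the 181 regions with a peak in 3 PBS, 0 PFF and 0 PFF+MLi-2 libraries. The sets defined by PBS, PFF and PFF+MLi-2 peaks do not restrict the PFF+Rab5 ASO libraries, whereas the set of 3 to 6 libraries counts their peaks.

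CACGTG was found in 56 members, 5.58% (4.32 to 7.18), against 3.20% (3.05 to 3.36) of regions of 3 to 6 libraries, 4.48% of those of all 12, 3.56% of all regions and 5.26% of kept regions. In the regions just outside the rule its share was 5.83% with 1 and 3.65% with 2 PFF+MLi-2 peaks, 4.88% with 2 PFF peaks and 5.19% with 1 PBS peak. CAGCTG was found in 22.6% of members, 16.5% of regions of 3 to 6 libraries and 11.4% (6.79 to 18.5) of kept regions. In the regions just outside the rule it was found in 20.7% with 1 and 20.7% with 2 PFF+MLi-2 peaks, 22.5% with 2 PFF peaks and 22.0% with 1 PBS peak, near the share in members. CAGATG, the E-box of neurogenic bHLH factors, was found in 25.6% of members and 23.2% of regions of 3 to 6 libraries. The motif GTCTAGAC, bound by SMAD factors, was found in 4 members, 0.399% (0.155 to 1.02), an interval that holds the 0.176% of all regions. The promoter motifs of SP and KLF factors (GGGCGGG), ETS (CCGGAAG) and CREB (TGACGTCA) were found in 2.59%, 1.30% and 0.299% of members, in 3.01%, 0.946% and 0.219% of regions of 3 to 6 libraries, and in 12.6%, 3.55% and 0.882% of regions of all 12 libraries. A match is a description of the sequence and not a bound site.

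Among members the AP-1 share differed with the peaks of the PFF+Rab5 ASO libraries. TGANTCA was found in 112 of the 533 members with no PFF+Rab5 ASO peak, 21.0% (17.8 to 24.7). It was found in 12.5%, 9.24% and 6.72% (3.45 to 12.7) of the members with a peak in 1, 2 and 3 PFF+Rab5 ASO libraries. CAGCTG went from 26.3% to 14.3% over the same classes, and CACGTG was at 5.07% and 5.88% at the ends. The gradient is not particular to members, since in the regions of 3 to 6 libraries TGANTCA went from 18.6% to 7.29%. GC content went the same way, from a median of 51.2% to 47.8% in members and from 48.8% to 42.3% in the regions of 3 to 6 libraries, and its part was not tested. The PFF+Rab5 ASO lists also had narrower peaks (smallest width 53 to 59 bp, against 62 to 66 bp in the other libraries).

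**Figure D4:**
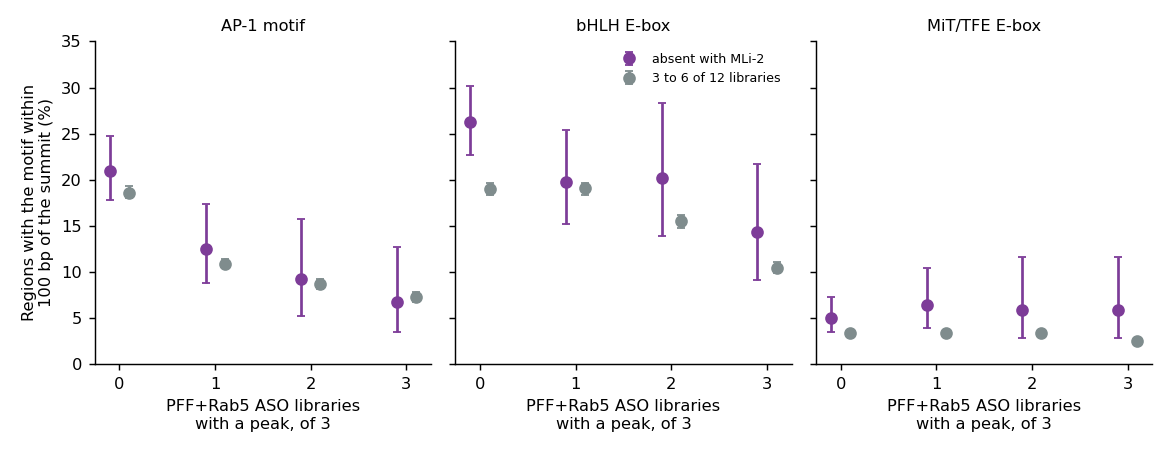
Share of regions (%) with the AP-1 motif, the bHLH E-box CAGCTG or the MiT/TFE E-box CACGTG within 100 bp of the summit, by number of PFF+Rab5 ASO libraries with a peak, for members (absent with MLi-2) and other regions of 3 to 6 libraries. Bars are Wilson 95% intervals, and the AP-1 share goes from 21.0% to 6.72% in members.

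The 20 members with the highest mean percentile in the PFF lists comprised 4 promoter, 1 exon, 11 intron and 4 intergenic regions. Of the 20, 11 had no peak in any PFF+Rab5 ASO library, beside 53.1% of all members. The highest lay in an intron of Seh1l, a nucleoporin gene, at chr18:67781132-67781346 (mean percentile 74.0 ± 7.37, SD, n = 3). Its pileup was 18, 16 and 20 in PFF replicates 1, 2 and 3 and 12, 17 and 10 in the PFF+Rab5 ASO replicates. It was called in all 6 libraries, with percentiles of 73.7, 66.8 and 81.5 in the PFF lists and 29.1, 70.3 and 9.37 in the PFF+Rab5 ASO lists, which overlap. An exon of Rbm14, an RNA-binding coactivator, came next, at chr19:4802941-4803244 with pileups of 17, 19 and 18. It had no PFF+Rab5 ASO peak, and a region with a PBS or PFF+MLi-2 peak lay 49 bp away.

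A region in an intron of Cd44, the receptor for hyaluronan, had pileups of 16, 20 and 17 in PFF and 19, 19 and 14 with the ASO (chr2:102884540-102884738). An intron of the noncoding gene 2700054A10Rik (chr17:13494004-13494135) had 18, 14 and 14 in PFF and 16, 21 and 19 with the ASO. The intron of Lsamp, a neuronal adhesion molecule, had 14, 13 and 17 in PFF and 15, 14 and 16 with the ASO. The pileups of these 3 regions overlapped between the PFF and PFF+Rab5 ASO libraries, and the regions were called in neither PBS nor PFF+MLi-2.

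Regions without any PFF+Rab5 ASO peak included one 20288 bp upstream of Pag1, a membrane adaptor of Src-family kinase signalling, with pileups of 13, 20 and 18 (chr3:9853833-9854096). The promoter of Arhgap20, a GTPase-activating protein, had 14, 21 and 13. The region 11034 bp from the start of Olig1, a bHLH factor of the oligodendrocyte lineage, had 13, 16 and 18, and the Il1r1 region had 17, 14 and 14. An intron of Pappa2, a protease of insulin-like growth factor binding proteins, had 15, 13 and 16, and an intron of Trabd2b, a Wnt-inhibiting protease, had 16, 18 and 17. In each of these the PFF replicates lay within 8 fragments of each other. The region 57625 bp from Nfe2l2, the gene of the oxidative stress factor NRF2, had 12, 18 and 14 in PFF and 18 and 13 in PFF+Rab5 ASO replicates 1 and 2, with no peak in replicate 3. An intron of Trappc9, which encodes a vesicle tethering subunit, had 13, 18 and 13 in PFF and 14 and 12 in the same ASO replicates.

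The start of the small nuclear RNA gene Gm24305 had pileups of 14, 13 and 17 in PFF and 17, 15 and 15 with the ASO. The promoters of C78283 and AC161579.1 had 17, 14 and 14 and 14, 14 and 18, and an intron of 5330417C22Rik had 16, 14 and 14, all without a PFF+Rab5 ASO peak. The Wwox region had 11, 20 and 15, and a region with a PBS or PFF+MLi-2 peak lay 40 bp away. The region whose nearest protein-coding start is that of Inhbb, a subunit of activins and inhibins, 129791 bp away, had 16, 16 and 21 in PFF and 11 and 13 in PFF+Rab5 ASO replicates 2 and 3.

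**Figure D5:**
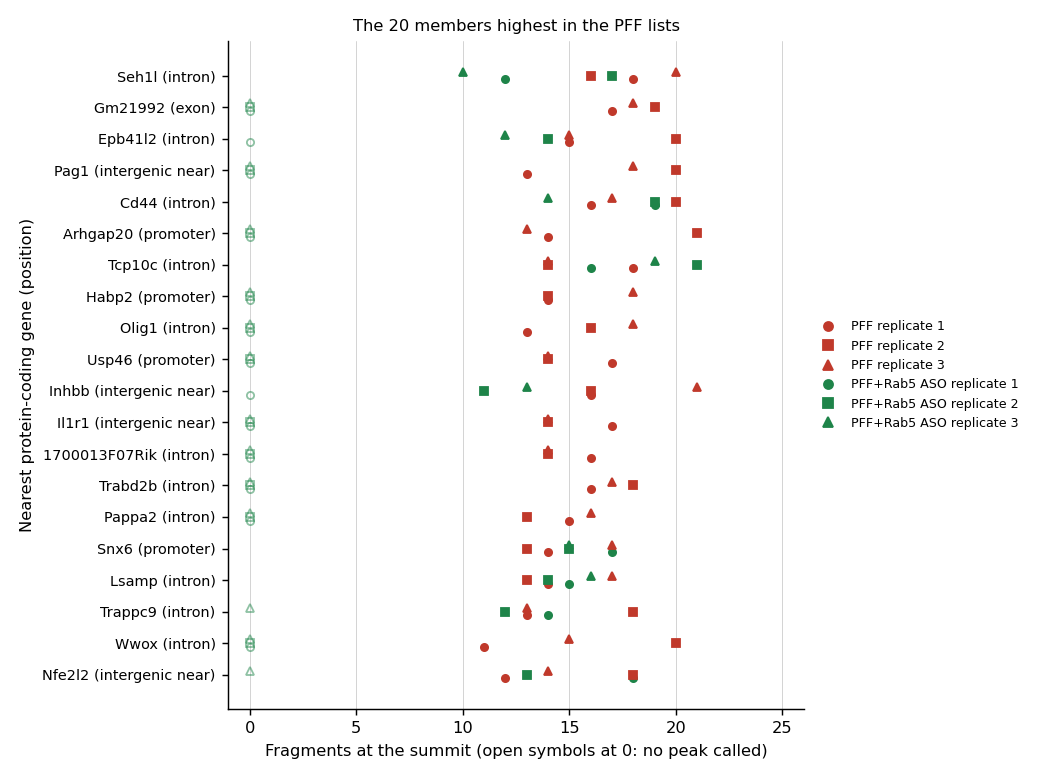
Pileup at the summit (fragments, horizontal axis) in the 3 PFF and 3 PFF+Rab5 ASO libraries for the 20 members highest in the PFF lists, named by the nearest protein-coding gene. Open symbols at 0 mark libraries with no peak called, and 11 of the 20 regions have 3 of them.

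Some members had high pileups but ranked low by fold over the local background. In 28 members the pileup was 20 or more in all 3 PFF libraries, and their mean percentiles ran from 0.176 to 48.6. Near Nfil3, a basic leucine zipper repressor, the pileup was 31, 35 and 29, with folds of 2.62, 2.68 and 2.51 and a mean percentile of 0.176. The Ak1 promoter had 25, 31 and 27 at a mean percentile of 0.847. An exon of Scrt1, a neuronal repressor, had 31, 35 and 32. Promoters of Celf3, a neuronal splicing factor (24, 26 and 22), and Hnrnpa1, an RNA-binding protein (24, 23 and 24), were of the same kind.

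Of the members, 618 lay in the body of a protein-coding gene or within 1 kb of a start site, and 616 genes held at least 1 member. Only 45 genes held 2 or more and 3 genes 3 or more. The most, 12, fell in Gm20388, a model that spans 4435 kb on chromosome 8 over many other genes and holds 992 regions. Epb41l2, which encodes a membrane skeleton protein of the 4.1 family, held 4 members of its 27 regions, and 3 of them formed the single run of 3 or more members spaced by under 20 kb. The intronic region at chr10:25453332-25453553 had pileups of 15, 20 and 15. The adjoining promoter regions at chr10:25466476-25466691 and chr10:25466724-25466908 had 12, 16 and 14 and 13, 17 and 11, and the one at chr10:25489851-25490100 had 15, 13 and 12. The adjoining pair had no PFF+Rab5 ASO peak, whereas the region at 25489851 had 13, 19 and 17. Mfhas1 held 3 members of 25 regions, one of them at its start site with pileups of 13, 17 and 12 and no PFF+Rab5 ASO peak.

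Promoter members of protein-coding genes were led, after Arhgap20, by Pcdhgb1 of the γ-protocadherin cluster (mean percentile 50.5 ± 15.9) and Ano2 (50.4 ± 8.51). Itgb4, an integrin subunit, had pileups of 14, 16 and 19 and was called in 1 PFF+Rab5 ASO library. Eed, a subunit of Polycomb repressive complex PRC2, had 11, 15 and 13 in PFF and 22, 9 and 11 with the ASO. Kif1b, an axonal transport kinesin, had 14, 16 and 13 in PFF and 12, 12 and 13 with the ASO. Sirt2, a tubulin deacetylase, had 14, 26 and 20, and Faim2, an inhibitor of Fas-mediated death, 14, 15 and 19. These are values of chromatin accessibility, and expression of the genes was not analysed here.

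Gene lists for lysosome, endosome, signalling and synapse held few members. Of 17 lists with 539 genes, 36 members (3.59%) fell in or at a listed gene, against 4.07% of all regions. The lists of LRRK2 with Rab GTPases and effectors, senescence, GABA-A receptors, glia and stress genes held 0 members, beside 0.160%, 0.109%, 0.107%, 0.0754% and 0.0425% of all regions, so that few members or none would be found there at the share of all regions. The vacuolar proton pump list held 1 member, in an intron of Atp6v0e (13, 21 and 20 in PFF, and 17, 16 and 13 with the ASO), which is 0.0997% of members beside 0.0432% of all regions. The autophagy list held 2, in introns of the genes of the transcription factors Tfeb (11, 13 and 12) and Mitf (13, 15 and 13), which is 0.199% of members beside 0.132% of all regions.

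Signalling lists held members in introns of Tgfbr2, a TGF-β receptor (14, 11 and 12), Smad1, a transducer of bone morphogenetic protein signals (10, 10 and 10), and Adcy5, an adenylyl cyclase, with 2 members. The TGF-β list held 0.199% of members beside 0.185% of all regions. At Adcy5 one region had 17, 16 and 15 in PFF and 17, 17 and 16 with the ASO, and the other had 12, 14 and 12 and no PFF+Rab5 ASO peak. The immediate early gene Dusp1, a MAP kinase phosphatase, held 1 (11, 13 and 14), in an intron of an annotated long form of the gene. Glutamate receptors and scaffolds held 8 members (0.798%, beside 0.729% of all regions), 4 of them without a PFF+Rab5 ASO peak. At Dlg2, a postsynaptic scaffold gene, the pileups were 10, 11 and 14 in PFF and 14, 17 and 14 with the ASO, and at Dlgap1, another scaffold gene, they were 15, 10 and 9 in PFF and 14 and 13 in PFF+Rab5 ASO replicates 1 and 3. Presynaptic release held 3, in Syn3 (13, 22 and 19), Erc1 and Vamp1 (0.299% beside 0.396%). Voltage-gated channels held 6 (0.598% beside 0.604%), in Cacna2d3 and Kcnma1 among others, and axon guidance and adhesion 8 (0.798% beside 0.767%), in Unc5d, a netrin receptor (17, 11 and 12), Sema5a, a semaphorin (13, 17 and 11), and Efna5, an ephrin (15, 11 and 11), among others. Notch2 was the single gene of the progenitor list (15, 12 and 11). With 1 to 8 members a list, these shares rest on few regions. The immediate early and progenitor lists each held 0.0997% of members, beside 0.0425% and 0.0462% of all regions, and the list of MAPK, PI3K and cAMP signalling, which holds Adcy5, 0.199% beside 0.413%.

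The identity of the cultures was checked from accessible start sites. All 6 neuron markers and all 6 projection neuron markers had a peak within 1 kb of a start site in every library, 4 or 5 of 5 interneuron markers did, and 5 of 5 astrocyte and 4 of 4 progenitor markers did as well. Microglial markers had 0 to 3 of 5, with Aif1 and Cx3cr1 at 0 in all libraries, and oligodendrocyte markers 1 to 3 of 5, with Mog at 0. An open start site does not show that a gene is expressed.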

How the data were processed

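ATAC-seq libraries of 4 groups of 3 were trimmed with Trim Galore 0.6.7, aligned to GRCm38 with Bowtie2 2.5.1 at its defaults and their peaks called per library with MACS2 2.2.7.1 by the authors. MACS2 options, duplicate handling and any Tn5 shift were not given in the sources used here. The deposited peak lists give a fold enrichment (ratio), a −log10 p-value and a −log10 q-value per peak, and read totals are unknown. Pileups were solved from fold and p, and 100% came out whole (tolerance 0.05). Annotation was GENCODE vM21 and sequence GRCm38, RefSeq. Scripts used Python 3.11.15 and were tested on simulated data. Members, motifs and gene lists were chosen with earlier results of these data known. Named members were the 20 highest by mean percentile of fold in the PFF lists, up to 3 per gene list, and the genes with most members; the promoter and high-pileup examples were chosen after their values were seen. Exact tests were two-sided. Unplaced contigs (1440 of 1916151 peaks) stayed in the merging but not in annotation. For MLi-2 and ASO samples the description field names PBS, but their titles and treatment labels name PFF and were followed. Some items are not reported here.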

Additional observations from a re-analysis of the deposited data

How the results depend on the processing

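The number of members depended most on how many libraries the rule asked for. It was 691 to 1062 with equal numbers of top peaks, a −log10 q-value of 3 or more, merging up to 100 bp or summits widened by 50 bp, and 1203 to 2863 when 1 of the 9 libraries was left out, the highest without PFF replicate 3. Leaving out PFF replicates 1 and 2 gave 2456 and 2058. The number of kept regions went from 114 to 825 without PBS replicate 1. It was 148 to 296 when 1 of the other libraries was left out. Members called in 2 or 3 PFF+Rab5 ASO libraries made up 19.6% to 32.5% with 1 library left out, the highest without PBS replicate 1, and 24.0% to 25.6% in the other 4 settings. The share within 1 kb of a start site dropped to 8.83% with merging up to 100 bp, and was 11.5% to 13.3% with 1 library left out. The cause was not tested. CACGTG stayed at 5.10% to 6.80% and TGANTCA at 13.8% to 16.8% in all 13 alternatives. The TGANTCA difference between members with 0 and 3 PFF+Rab5 ASO peaks was 10.6 to 18.1 points, and members stayed below kept regions by 17.2 to 30.9 points. Motif settings for TGANTCA, and some others, were added after seeing the data.

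With the replicate block, the held-out differences of 23.9 points from PBS and 28.5 from PFF+MLi-2 had an exact sign-flip p = 0.25, the smallest that 3 pairs give. Over all 27 choices of held-out libraries they were 23.3 and 28.0, and PFF was above both other groups in 27 of 27. Other settings gave 23.8 to 25.3 and 24.0 to 29.7. Cultures of a pregnancy were divided among groups, but the labels do not say that a replicate number marks a pregnancy, and the depth behind each list is unknown.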
